A study of Mus musculus with 62 samples.

Results

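The steroid receptors and the glucocorticoid-responsive genes described here are 7 genes of 12483 listed in either deposited count table. They were taken by symbol from the Ensembl identifiers of the tables, and all 7 were present in the table of the suprachiasmatic nucleus (SCN) and in that of the nucleus accumbens (NAc) and prefrontal cortex (PFC). The choice was by name, with no threshold on a measured value. The libraries came from 26 adult C57BL/6 J mice of the study on circadian rhythm disruption (CRD), which exposed mice to repeated reversals of the light cycle in adolescence or in adulthood beside matched controls with an unchanged light cycle. All brains were collected at ZT6, in the light phase, about 4 weeks after the light schedule ended. Each library was the bulk RNA of the punched region of 1 mouse, with 19 libraries of the SCN, 26 of the NAc and 17 of the PFC. The labels of these libraries name the region and the mouse number, but neither CRD or control, nor the age at exposure, nor sex. CRD and control mice of both sexes are therefore pooled in each region below, and no label of CRD or sex entered a test. Clusters of Xist level, read from the counts and not from labels, were used in an alternative for the relations. The methods of the study describe tissue of mice exposed in adolescence and their controls, whereas the protocol in the labels also names adult CRD.

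Glucocorticoid hormone enters cells and binds the glucocorticoid receptor, encoded by Nr3c1, and, with higher affinity, the mineralocorticoid receptor, encoded by Nr3c2. The bound receptor leaves its Hsp90 chaperone complex, moves to the nucleus and binds a palindromic DNA element, the glucocorticoid response element. Fkbp5, a co-chaperone that lowers the hormone affinity of the receptor, Sgk1, a serum and glucocorticoid-regulated kinase, and Tsc22d3, which encodes the leucine zipper protein GILZ, are widely used readouts of this pathway in brain. Esr1 encodes estrogen receptor alpha and Pgr the progesterone receptor, which in several hypothalamic cell groups is itself induced by estrogen. Neurons of the adult SCN are known for little or no glucocorticoid receptor.

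Positions below are those of GENCODE M21 on GRCm38. Nr3c2 lies on chromosome 8 (76899442 to 77245012, plus strand), Fkbp5 on chromosome 17 (28399094 to 28517527, minus strand), Sgk1 on chromosome 10 (21882184 to 21999903, plus strand), Tsc22d3 on chromosome X (140539528 to 140600659, minus strand), Esr1 on chromosome 10 (4611593 to 5005614, plus strand) and Pgr on chromosome 9 (8899833 to 8968611, plus strand). Every member is a protein-coding gene, and counts were made over exons. Genes annotated within Nr3c2 and Fkbp5, small RNAs and non-coding transcripts on either strand, were not analysed here.

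The start sites of the hormone-responsive genes are shown because the relation between Fkbp5, Sgk1 and Tsc22d3 is examined below. Each window, from the RefSeq promoter table of build GRCm38.p6, holds 250 bases before and 50 after a transcript start, 5′ to 3′ on the strand of the gene. Capitals mark the glucocorticoid response element (AGAACA and TGTTCT separated by 3 bases) or its arm TGTTCT, on either strand. There were 6 windows of Sgk1, 3 of Tsc22d3 and 1 of Fkbp5. The window printed for Sgk1 is the one with the full element, and that for Tsc22d3 the one with the arm. No Nr3c1 window was used here.
Sgk1, chr10:21993640-21993939, plus strand: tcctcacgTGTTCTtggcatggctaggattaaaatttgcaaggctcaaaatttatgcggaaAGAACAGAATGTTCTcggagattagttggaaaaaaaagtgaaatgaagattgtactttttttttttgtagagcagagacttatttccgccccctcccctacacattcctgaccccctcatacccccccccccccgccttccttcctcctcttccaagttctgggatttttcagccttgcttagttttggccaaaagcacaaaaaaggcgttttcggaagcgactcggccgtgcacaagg
Tsc22d3, chrX:140600473-140600772, minus strand: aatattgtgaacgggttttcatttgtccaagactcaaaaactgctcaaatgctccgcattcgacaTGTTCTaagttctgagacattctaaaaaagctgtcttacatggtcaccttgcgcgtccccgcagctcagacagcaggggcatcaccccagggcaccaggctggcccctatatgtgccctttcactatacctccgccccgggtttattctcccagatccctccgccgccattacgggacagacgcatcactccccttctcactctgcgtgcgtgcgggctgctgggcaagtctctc
Fkbp5, chr17:28486100-28486399, minus strand: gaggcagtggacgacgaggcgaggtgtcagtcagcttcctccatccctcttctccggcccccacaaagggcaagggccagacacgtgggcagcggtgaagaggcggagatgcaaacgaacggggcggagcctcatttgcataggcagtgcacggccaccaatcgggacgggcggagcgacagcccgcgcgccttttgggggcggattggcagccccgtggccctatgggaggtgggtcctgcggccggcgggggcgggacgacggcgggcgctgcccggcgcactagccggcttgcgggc
The full element was found in the Sgk1 window, at position -189 from the transcript start, and in 3 of 32851 windows in all (0.00913%). The arm TGTTCT, which is contained in the full element, was found at position -185 in the Tsc22d3 window and in 19% of all windows. It also stood at position -242 in the printed Sgk1 window, and at -195 and -13 in Sgk1 windows that are not printed. In the Fkbp5 window neither string was found, which says only that these letters are not in those 300 bases. A match is a description of the sequence and not evidence of binding.

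Libraries held 16496666 to 35389742 gene-assigned reads in the SCN, 28879724 to 60009482 in the NAc and 31216225 to 50333579 in the PFC, of which mitochondrial rRNA made up between 20.53% and 69.27%. Region labels were checked against marker genes. The summed level of 5 striatal markers (Drd1, Drd2, Adora2a, Ppp1r1b and Rgs9) was 429 to 1001 CPM (counts scaled to library size) in the NAc and 10.3 to 42.7 CPM in the PFC, and that of 5 cortical markers (Slc17a7, Tbr1, Neurod2, Neurod6 and Cux2) was 594 to 950 CPM in the PFC. The sum of the cortical markers in NAc punches varied between 4.82 and 511 CPM around a median of 83.2 CPM. SCN neuron markers summed to between 81.6 and 640 CPM in the SCN. SCN J1199 and SCN J1140 stood apart, with 224 and 120 CPM of the 3 striatal markers in the SCN table whereas the remaining 17 reached no more than 44.8 CPM. The libraries of mouse J1165 did not all fall in the same cluster of Xist level, and relations between regions are also given without that mouse. In bulk tissue, fewer cells of a type and less RNA per cell cannot be told apart.

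Levels were compared between genes only after division by exon length, as CPM per kb. Nr3c1 had the highest level of the 7 genes in all 62 libraries, with medians of 8.82 (SCN), 11.5 (NAc) and 12.3 (PFC) CPM per kb. Esr1 had the lowest median in each region, at 0.672 (SCN), 0.0835 (NAc) and 0.216 (PFC) CPM per kb. The order between these ends differed by region. In the SCN, Tsc22d3 came next at 6.92 CPM per kb, above Nr3c2 in 19 of 19 libraries, and it was followed by Nr3c2 (2.36), Sgk1 (1.74), Pgr (1.61) and Fkbp5 (1.09). In the NAc, Nr3c2 followed Nr3c1 at 6.13 CPM per kb, with Sgk1 (5.57), Tsc22d3 (3.66), Pgr (2.12) and Fkbp5 (1.91) after it. In the PFC, Tsc22d3 (3.73 CPM per kb), Sgk1 (3.42), Nr3c2 (3.04) and Pgr (2.76) lay close together, and Fkbp5 was at 0.831. Several neighbours could not be ordered. Nr3c2 exceeded Sgk1 in 11 of 19 SCN libraries and in 15 of 26 NAc libraries, Sgk1 exceeded Pgr in 11 of 19 SCN libraries, and Pgr exceeded Fkbp5 in 15 of 26 NAc libraries.

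**Figure D1:**
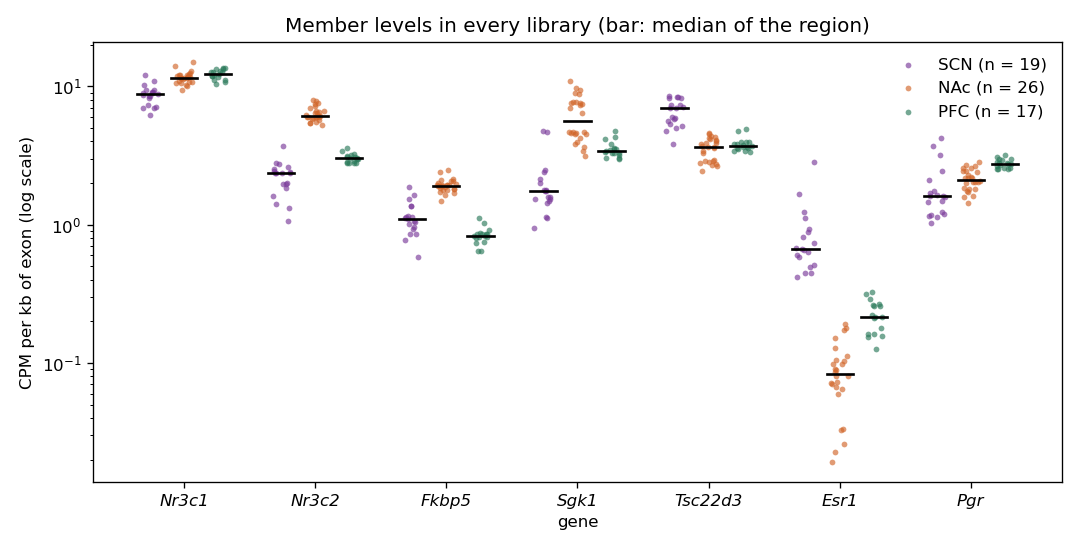
Level of each gene in every library, in CPM per kb of exon on a log axis, with SCN, NAc and PFC libraries side by side and a bar at the median of each region. The NAc points of Nr3c2 and Fkbp5 lie above all PFC points, and the SCN points of Esr1 lie above all points of the other regions.

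The question of the NAc against PFC comparison was how the members differ between the 2 regions of the reward circuit. Of the 7 members, 5 were called between the NAc and PFC (edgeR quasi-likelihood test with Benjamini-Hochberg adjustment, passing 0.05 with a change of 1.2-fold or more). Across the table, 45.4% of genes were called, 23.7% higher and 21.7% lower in the NAc. Fkbp5, Nr3c2 and Sgk1 were higher in the NAc, while Esr1 and Pgr were lower there. Nr3c1 and Tsc22d3 did not pass the test.

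Nr3c2 had 34 to 51.9 CPM in the NAc (median 39.7, n = 26) and 17.9 to 23.0 CPM in the PFC (median 19.7, n = 17). The ranges did not overlap, and the NAc level was the higher in 17 of 17 mice with both regions. The log2 fold change was 1.07 (SE 0.0473, 2.09-fold, adjusted p = 2.19e-24, edgeR). Nr3c1, the partner receptor, had 72.3 to 115 CPM in the NAc (median 88.4) and 80.1 to 104 CPM in the PFC (median 94.3), with a log2 fold change of -0.07 (SE 0.0439, 95% interval from -0.158 to 0.0144, adjusted p = 0.152, edgeR). NAc and PFC ranges of Nr3c1 overlapped in 21 of 26 NAc libraries. The ratio of Nr3c1 to Nr3c2 per kb was accordingly lower in the NAc, with a median of 1.85 (1.46 to 2.84), than in the PFC, where it was 4.12 (2.93 to 4.77). In the SCN the median was 3.8 and the range 2.63 to 8.19.

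Fkbp5 was at 14.1 to 23.5 CPM in the NAc (median 18.1) and 6.08 to 10.6 CPM in the PFC (median 7.87). Its ranges did not overlap either, and it was higher in the NAc in 17 of 17 mice, with a log2 fold change of 1.2 (SE 0.0569, 2.30-fold, adjusted p = 2.89e-23, edgeR). Separation of the library ranges was seen for 9.06% of the 11133 genes in both tables. Sgk1 ranged from 15.5 to 53.9 CPM in the NAc (median 27.3) and from 14.5 to 23.3 CPM in the PFC (median 16.8). Its NAc libraries lay in separate ranges, 13 at 3.86 to 4.41 log2 CPM, inside the PFC range, and 13 at 4.88 to 5.65 log2 CPM, above it. The log2 fold change of Sgk1 was 0.81 (SE 0.133, 1.75-fold, adjusted p = 7.65e-07, edgeR), and the gene was higher in the NAc in 16 of 17 mice. Without the 13 NAc libraries above the median of the cortical markers, an alternative chosen after seeing the data, it was 1.15 (SE 0.0835). Tsc22d3 had 10.6 to 20.1 CPM in the NAc (median 15.9) and 14.4 to 21.4 CPM in the PFC (median 16.2), with a log2 fold change of -0.10 (SE 0.0725, 95% interval from -0.244 to 0.0404, adjusted p = 0.221, edgeR). It was lower in the NAc in 12 of 17 mice. With the mouse as a replicate block it was -0.165 (adjusted p = 0.0472, edgeR). Without the 13 NAc libraries high in cortical markers it was -0.222 (adjusted p = 0.0177, edgeR). Both changes were under 1.2-fold, so neither was called. The hormone-responsive genes did not share a direction between these regions.

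Esr1 was a low-level transcript in both regions, with 0.262 to 2.61 CPM in the NAc (7 to 153 reads, median 1.14 CPM) and 1.73 to 4.47 CPM in the PFC (70 to 208 reads, median 2.95 CPM). It was lower in the NAc in 16 of 17 mice, with 5 of 26 NAc libraries inside the PFC range. The log2 fold change was -1.30 (SE 0.191, 2.47-fold lower, adjusted p = 8.33e-08, edgeR), and -1.80 (SE 0.201) without the 13 NAc libraries high in cortical markers. Pgr had 12.3 to 24.1 CPM in the NAc (median 18.1) and 21.4 to 27.2 CPM in the PFC (median 23.6). It was lower in the NAc in 17 of 17 mice by a small margin, with a log2 fold change of -0.38 (SE 0.0633, 1.30-fold lower, adjusted p = 1.18e-06, edgeR).

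**Figure D2:**
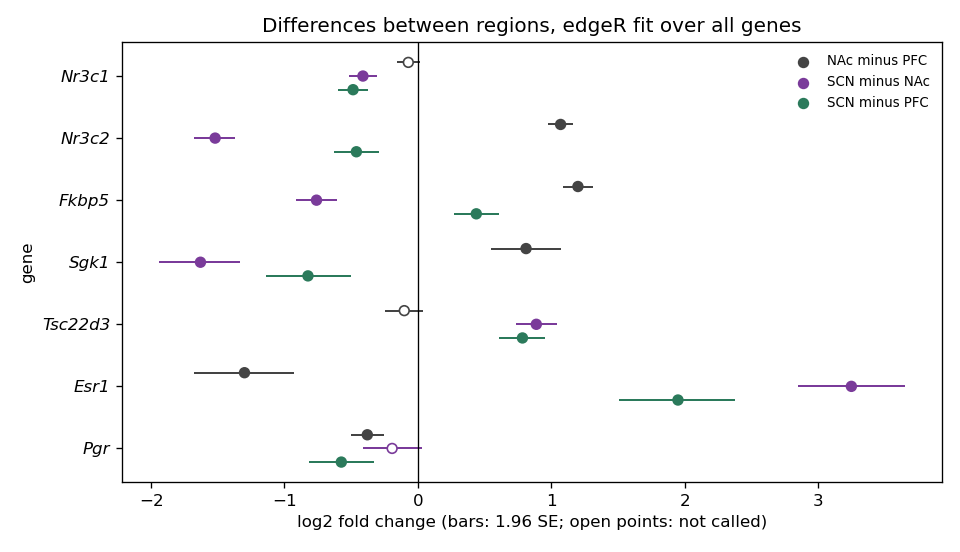
Log2 fold change of each gene between regions from the edgeR fit, with 95% bars from the SE, filled points for genes that were called and open points for those that were not. Nr3c2, Fkbp5 and Sgk1 lie to the right for the NAc minus PFC and to the left for the SCN minus NAc, and Esr1 lies farthest right for the SCN minus NAc, at 3.25.

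The mice carry numbers no higher than J1021 (lower range) or no lower than J1140 (upper range), a gap that the labels do not explain. The NAc against PFC difference of the 7 members was tested for an interaction with this range, and 0 of 7 passed (edgeR, smallest adjusted p of 0.349, for Nr3c1). Over all 11569 genes 0 passed as well, with 2279 at an unadjusted p under 0.05. In either range alone, 5 members were called.

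The SCN against NAc comparison called 6 of 7 members, where 64.1% of 11133 genes were called, 33.1% higher and 31.0% lower in the SCN. Esr1 differed most. It had 5.71 to 38.7 CPM in the SCN (median 9.18, n = 19), above every NAc library, and the log2 fold change was 3.25 (SE 0.205, 9.51-fold, adjusted p = 1.16e-22, edgeR). Tsc22d3, at 16.6 to 36.7 CPM in the SCN (median 30.0), was also higher in the SCN, with a log2 fold change of 0.89 (SE 0.0783, adjusted p = 3.81e-16, edgeR) and a higher level in 19 of 19 mice. Nr3c2 at 6.85 to 23.8 CPM in the SCN (median 15.3) was below every NAc library, with a log2 fold change of -1.52 (SE 0.0795, 2.88-fold lower, adjusted p = 1.03e-26, edgeR). Its highest SCN level was that of J1199, a library high in striatal genes, and without J1199 and J1140 the log2 fold change was -1.60. Non-overlapping ranges between the SCN and NAc, which Esr1 and Nr3c2 showed, were found for 13.2% of genes.

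Sgk1 was at 4.62 to 23.4 CPM in the SCN (median 8.52), where J1165 and J1199 reached 23.4 and 22.8 CPM and the other 17 libraries at most 12.3 CPM. It was lower in the SCN than in the NAc in 19 of 19 mice, by a log2 fold change of -1.63 (SE 0.155, 3.10-fold lower, adjusted p = 6.79e-15, edgeR). Fkbp5, at 5.54 to 17.6 CPM in the SCN (median 10.4), was 1.69-fold lower than in the NAc (log2 fold change -0.76, SE 0.0783, adjusted p = 1.54e-13, edgeR). Nr3c1, at 47.5 to 92.3 CPM in the SCN (median 67.7), was 1.33-fold lower than in the NAc (log2 fold change -0.41, SE 0.0531, adjusted p = 2.74e-10, edgeR) and lower in 19 of 19 mice. Pgr had 8.72 to 35.9 CPM in the SCN (median 13.8) and did not pass the test (log2 fold change -0.19, SE 0.113, 95% interval from -0.414 to 0.0279, adjusted p = 0.112, edgeR). With the mouse as a replicate block it was called, at -0.29 (adjusted p = 0.0388, edgeR), and likewise at -0.31 (adjusted p = 0.0386, edgeR) without the 13 NAc libraries high in cortical markers.

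Against the PFC, which shares the SCN libraries with the comparison above, all 7 members were called, where 64.7% of genes were called, 33.7% higher and 31.0% lower in the SCN. Esr1 and Tsc22d3 were again higher in the SCN, by log2 fold changes of 1.95 (SE 0.223) and 0.78 (SE 0.0881), and SCN levels of Esr1 lay above every PFC library, a separation found for 20.7% of genes. Fkbp5 was higher in the SCN than in the PFC, by 0.44 (SE 0.0862), so its order was NAc, SCN and PFC. Sgk1 (-0.82, SE 0.164), Pgr (-0.57, SE 0.124), Nr3c1 (-0.49, SE 0.0582) and Nr3c2 (-0.46, SE 0.0843) were lower in the SCN. The largest of these 7 adjusted p-values was 3.41e-05 (edgeR), for Pgr. In the lower range of mouse numbers, with 7 SCN and 7 PFC libraries, Fkbp5 (0.32, adjusted p = 0.0815, edgeR) and Pgr (-0.39, adjusted p = 0.149, edgeR) were no longer called.

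Other genes of the pathway were read from lists of glucocorticoid-responsive genes, of receptor chaperones and cofactors, and of other steroid receptors with steroid supply. Of 32 listed glucocorticoid-responsive genes, 24 were tested between the NAc and PFC, and 7 were higher, 6 lower and 11 not called. Called genes made up 54.2% of the list and 45.4% of all genes. The median log2 fold change of the list was 0.01, and that of all genes 0.02. Zbtb16, a zinc finger transcription factor, was 8.72-fold lower in the NAc (log2 fold change -3.12, SE 0.134, adjusted p = 5.77e-25, edgeR), with 2.12 to 10.9 CPM in the NAc and 28.4 to 42.4 CPM in the PFC. Gjb6, which encodes the astrocyte gap junction protein connexin 30, was 2.36-fold lower (adjusted p = 1.05e-10, edgeR), and the cell cycle inhibitor Cdkn1a 1.72-fold lower (adjusted p = 1.14e-08, edgeR). On the other side, Tiparp, an ADP-ribosyltransferase, was 1.92-fold higher (adjusted p = 7.15e-15, edgeR), the small GTPase Arl4d 1.58-fold higher (adjusted p = 8.65e-04, edgeR) and Ddit4, an inhibitor of mTORC1, 1.39-fold higher in the NAc (adjusted p = 9.20e-05, edgeR). Between the SCN and NAc, 12 of 22 tested genes of the list were higher and 6 lower in the SCN, and between the SCN and PFC 10 were higher and 6 lower. These were 81.8% and 72.7% of the list, where 64.1% and 64.7% of all genes were called.

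Chaperones and cofactors differed little between the NAc and PFC. Of 22 tested genes, 0 were higher, 3 were lower and 19 were not called by edgeR, where DESeq2 also called 0 higher and 3 lower and where 4 were higher and 7 lower at an unadjusted p under 0.05. The genes called were Ppp5c, a phosphatase of the receptor complex (1.64-fold lower, adjusted p = 1.02e-11, edgeR), the Hsp40 family member Dnajb1 (1.48-fold lower, adjusted p = 4.71e-13, edgeR) and Hsp90aa1, an Hsp90 chaperone (1.30-fold lower, adjusted p = 0.00229, edgeR). The share of the list called was 13.6%, against 45.4% of all genes. In the SCN, 7 of the 22 were higher and 9 lower than in the NAc, and 3 were higher and 11 lower than in the PFC. These were 72.7% and 63.6% of the list, against 64.1% and 64.7% of all genes. Fkbp4, a co-chaperone that competes with Fkbp5 for Hsp90, was among the higher genes in both comparisons (log2 fold changes 1.06 and 0.92, adjusted p = 5.87e-26 and 1.57e-20, edgeR), and was named here after its values were seen.

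Of 23 genes for other steroid receptors and steroid supply, 13 were tested between the NAc and PFC, and 2 were higher, 5 lower and 6 not called, with 53.8% of the list called against 45.4% of all genes. Crhr1, the main receptor for corticotropin-releasing hormone, was 3.11-fold lower in the NAc (adjusted p = 2.13e-20, edgeR) and Crhbp, the binding protein of that hormone, 2.63-fold lower (adjusted p = 1.03e-06, edgeR). Paqr7, a membrane progestin receptor, was 1.64-fold lower (adjusted p = 1.89e-08, edgeR). The orphan receptors Esrrg and Esrra were 1.67-fold and 1.27-fold higher in the NAc (adjusted p = 7.23e-05 and 7.52e-05, edgeR). All 10 genes of the list in both tables were called between the SCN and each other region, 6 higher and 4 lower in the SCN, where 64.1% and 64.7% of all genes were called.

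Whether Fkbp5, Sgk1 and Tsc22d3 vary together was asked across libraries of each region, with Pearson's r of log2 CPM and two-sided permutation tests, adjusted over the 63 pairs of members in 3 regions. Of the 9 relations among the trio, 0 passed, 1 had an unadjusted p under 0.05, and by Spearman's rho 0 passed and 0 were under 0.05 unadjusted. The 9 values of r lay between -0.42 and 0.45 (median 0.12). Between Sgk1 and Tsc22d3 in the NAc, r was -0.42 (permutation p = 0.0325, adjusted p = 0.128, rho -0.28 with p = 0.166), and when the 2 libraries with the most extreme first gene were dropped it was -0.59 and passed (adjusted p = 0.0316, permutation). In the 13 libraries at or below the NAc median of cortical markers it was -0.21, and in the 13 above it -0.05. After regression of both genes on the striatal and cortical marker scores it was -0.03. In the PFC, r between these genes was 0.45 (permutation p = 0.0661, adjusted p = 0.198, rho 0.30). Fkbp5 had an r between -0.22 and 0.17 with Sgk1 and Tsc22d3 in each region. In the SCN its r with Tsc22d3, -0.22 over all libraries, was -0.55 without the 2 farthest libraries (adjusted p = 0.139, permutation), 0.50 among mice of low numbers and -0.74 among those of high numbers (adjusted p = 0.0806, permutation). With these numbers of libraries, a weaker relation cannot be told from none.

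**Figure D3:**
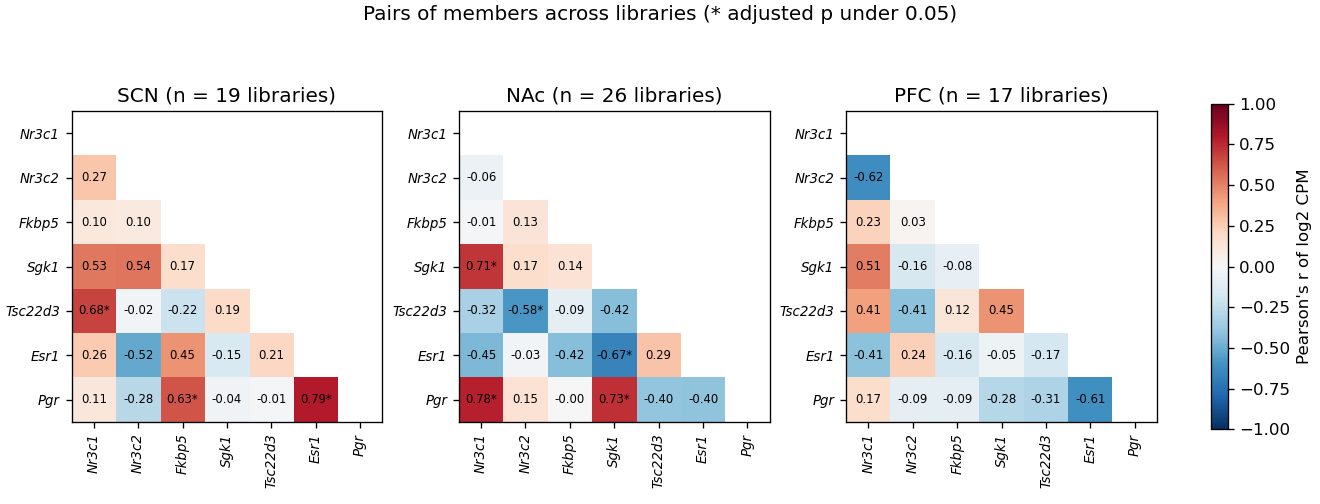
Pearson's r of log2 CPM between members across the libraries of each region, with a star where the adjusted permutation p is under 0.05. Stars mark 3 SCN, 5 NAc and 0 PFC pairs, and none lies between Fkbp5, Sgk1 and Tsc22d3. NAc values of Sgk1 pool libraries from its separate ranges.

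Over all pairs of members, 8 of 63 passed. In the SCN these were Nr3c1 with Tsc22d3 (r = 0.68, permutation p = 0.00135, adjusted p = 0.0142, rho 0.52 with p = 0.0256), Fkbp5 with Pgr (r = 0.63, permutation p = 0.00414, adjusted p = 0.0326, rho 0.51 with p = 0.0263), and Esr1 with Pgr (r = 0.79, permutation p = 1.70e-04, adjusted p = 0.00214, rho 0.67 with p = 0.00259). Their r was 0.51, 0.49 and 0.54 without the 2 farthest libraries, none of which passed, and by Spearman's rho Esr1 with Pgr passed (adjusted p = 0.0326, permutation) while the other pairs did not (adjusted p = 0.138 for both). An r as high with the first gene of each pair was reached by 1.13%, 0.764% and 0.108% of all genes. Within the lower range of mouse numbers r was 0.69, 0.68 and 0.90, and within the upper range 0.68, 0.64 and 0.63. In the NAc and PFC these pairs did not pass. There r was -0.32 and 0.41 for Nr3c1 with Tsc22d3, and -0.003 and -0.09 for Fkbp5 with Pgr. Esr1 with Pgr had the opposite sign there, with r = -0.40 in the NAc (adjusted p = 0.152, permutation). In the PFC its r was -0.61 (adjusted p = 0.0598, permutation, rho -0.67). Nr3c1 in the SCN also rose with the microglial marker score (r = 0.76, permutation p = 1e-04, adjusted p = 0.00268 over 161 relations, rho 0.70 with p = 0.00147), with r = 0.57 without the 2 libraries farthest in that score. The 8 microglial markers summed to between 105 and 192 CPM in the SCN. The part of the microglial markers in the relation with Tsc22d3 was not tested. Nr3c1 had r = 0.61 with the endothelial score (adjusted p = 0.0576, permutation), and after regression of both genes on that score its r with Tsc22d3 was 0.58 and did not pass (adjusted p = 0.0657, permutation).

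In the NAc, 5 pairs passed over all 26 libraries. Nr3c1 rose with Pgr (r = 0.78, permutation p = 1e-05, adjusted p = 6.30e-04, rho 0.77), where the p is the smallest these permutations can give, and 1.98% of all genes had as high an r with Nr3c1. Without the 2 farthest libraries r was 0.80, within the lower and upper ranges of mouse numbers 0.78 and 0.80, and in the libraries at or below and above the NAc median of cortical markers 0.67 and 0.80. Nr3c2 and Tsc22d3 were inversely related (r = -0.58, permutation p = 0.00177, adjusted p = 0.0159), but did not pass by Spearman's rho (-0.49, adjusted p = 0.0975, permutation) or without the 2 farthest libraries (r = -0.53, adjusted p = 0.0748, permutation), with r of -0.58 and -0.23 on those sides of the median. The other pairs joined Sgk1 with Nr3c1, Pgr and Esr1. Over all 26 libraries 8.24% of all genes had an r with Sgk1 as high as that of Nr3c1, and 7.31% as high as that of Pgr. Since Sgk1 lay in separate ranges in the NAc, their r is given within the 13 libraries at or below and the 13 above the cortical median, a division chosen after the data had been seen. It was 0.80 and 0.28 with Nr3c1, 0.77 and 0.57 with Pgr, and -0.31 and -0.67 with Esr1. This division did not separate the ranges of Sgk1 fully. J980, at 4.403 log2 CPM, fell at or below the median with the libraries of high Sgk1. J1017, at 5.443 log2 CPM, fell above the median with the libraries of low Sgk1. How far these values of r rest on J980 and J1017 was not tested. Of the 6 values of r, that of Sgk1 with Nr3c1 in the libraries at or below the median passed (adjusted p = 0.0430, permutation). Among those libraries J980 was the lowest in both genes (Nr3c1 at 6.196 log2 CPM), and r without it was not computed. Outside these 6, Nr3c1 with Pgr passed in the libraries above the median (adjusted p = 0.0261, permutation).

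Markers of tissue composition moved with the same genes in the NAc, in relations that were examined after the data had been seen. Within the libraries at or below and above the cortical median, r of Sgk1 with the astrocyte score was -0.93 and -0.66, with the cortical score -0.62 and -0.12, and with the striatal score 0.21 and 0.40. With the log2 count of nuclear protein-coding reads it was -0.54 and -0.42. J980 and J1017, each apart in Sgk1 from the rest of its side, entered these values as well. The division was made on the cortical markers, which narrows the spread of the cortical score on each side. Values of r with that score within a side, also those of Nr3c1 below, therefore cannot be set against r over all libraries. Nr3c1 fell over all 26 libraries with the astrocyte score (r = -0.70, adjusted p = 0.00258, permutation) and the cortical score (r = -0.67, adjusted p = 0.00276, permutation), which on the sides of the median were -0.79 and -0.23, and -0.61 and 0.0011. Pgr fell with the astrocyte score (r = -0.64, adjusted p = 0.00537, permutation), with -0.67 and -0.39 on those sides. Esr1 and Tsc22d3 fell with the striatal score (r = -0.68 and -0.62, adjusted p = 0.00302 and 0.0121, permutation), with which Nr3c2 rose (r = 0.56, adjusted p = 0.0308, permutation). At or below and above the median these were -0.33 and -0.69 for Esr1, -0.86 and -0.10 for Tsc22d3, and 0.43 and 0.58 for Nr3c2. All 5 cortical, 5 striatal and 8 astrocyte markers were detected in the NAc, and the astrocyte markers summed to between 428 and 1518 CPM. After regression of both genes on the striatal and cortical scores, r of Nr3c1 with Pgr was 0.73 and of Sgk1 with Pgr 0.62, and both passed, whereas Nr3c1 with Sgk1 (0.51), Sgk1 with Esr1 (-0.40) and Nr3c2 with Tsc22d3 (-0.36) did not. After regression on the astrocyte score, r was 0.61 for Nr3c1 with Pgr and -0.63 for Nr3c2 with Tsc22d3, which passed, and 0.47 for Sgk1 with Pgr, -0.47 for Sgk1 with Esr1 and 0.35 for Nr3c1 with Sgk1, which did not.

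**Figure D4:**
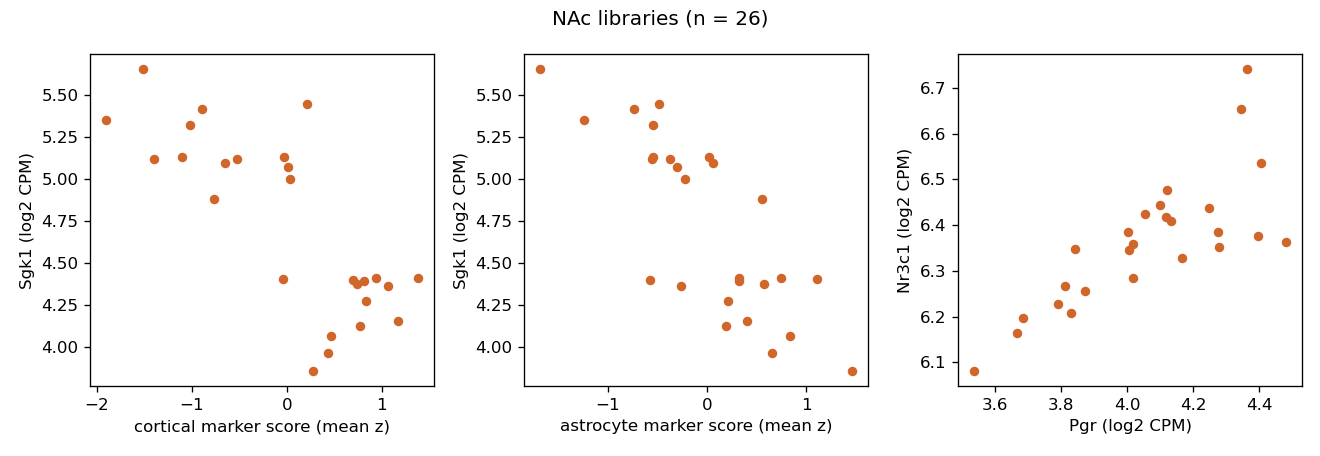
NAc libraries, with Sgk1 in log2 CPM against the cortical and the astrocyte marker scores (mean z-score of the marker genes), and Nr3c1 against Pgr, both in log2 CPM, with 1 point per library. Sgk1 leaves a gap between 4.41 and 4.88 log2 CPM, with libraries of high cortical score mostly under it, and Nr3c1 rises with Pgr (r = 0.78).

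Between regions of the same mouse, 0 of 21 relations of a member with itself passed, 2 had an unadjusted p under 0.05, and by Spearman's rho 0 passed with 2 under 0.05 unadjusted. For Fkbp5, Sgk1 and Tsc22d3 the 9 values of r ranged from -0.25 to 0.37, their median was 0.18, and 0 had an unadjusted p under 0.05. The highest of these 9, Fkbp5 between the SCN and NAc (rho 0.06), was not stable. It was 0.57 without J1199 and J1140 and -0.17 without the 2 farthest mice. Among mice of low and high numbers it was 0.88 (n = 7) and -0.18 (n = 12). Pgr between the NAc and PFC had the largest r, 0.64 over 17 mice (permutation p = 0.00498, adjusted p = 0.105, rho 0.66 with p = 0.00435). It was 0.46 without the 2 farthest mice, 0.66 without J1165, and 0.48 and 0.81 among mice of low and high numbers. Esr1 between these regions had r = 0.49 (permutation p = 0.0443, adjusted p = 0.466, rho 0.54), and 0.23 without the 2 farthest mice. A mouse with a high level of a hormone-responsive gene in a region was thus not shown to have a high level in another.

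In the SCN, Esr1 and Pgr were read against markers of SCN neurons (9 genes, among them Six6, Lhx1, Vip and Avp), of ependyma and of other hypothalamic neurons, 6 relations in all, of which 3 passed. Both genes fell as the SCN neuron score rose, with r = -0.54 for Esr1 (permutation p = 0.0169, adjusted p = 0.0362, rho -0.57 with p = 0.0122) and r = -0.54 for Pgr (permutation p = 0.0158, adjusted p = 0.0362, rho -0.57 with p = 0.0118). Without the 2 libraries farthest from the median of the SCN neuron score these were -0.68 and -0.67. That rule looked at the score only, and J1011, the highest library in both genes, stayed in. Without J1199 and J1140 they were -0.64 and -0.53. Pgr rose with the 4 measured markers of other hypothalamic neurons (r = 0.53, permutation p = 0.0181, adjusted p = 0.0362, rho 0.59 with p = 0.00935), and Esr1 had r = 0.48 with them (adjusted p = 0.0523, permutation). None of the 6 passed within the lower range of 7 libraries (r = -0.71 and -0.61 with the SCN neuron score) or the upper range of 12 (r = -0.33 and -0.47). The ependymal score, with r of 0.19 and 0.11, changed sign in the upper range. Pgr also fell with the astrocyte score (r = -0.77, adjusted p = 0.00258, permutation) and the oligodendrocyte score (r = -0.67, adjusted p = 0.0203, permutation), and Esr1 with the astrocyte score (r = -0.62, adjusted p = 0.0435, permutation).

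**Figure D5:**
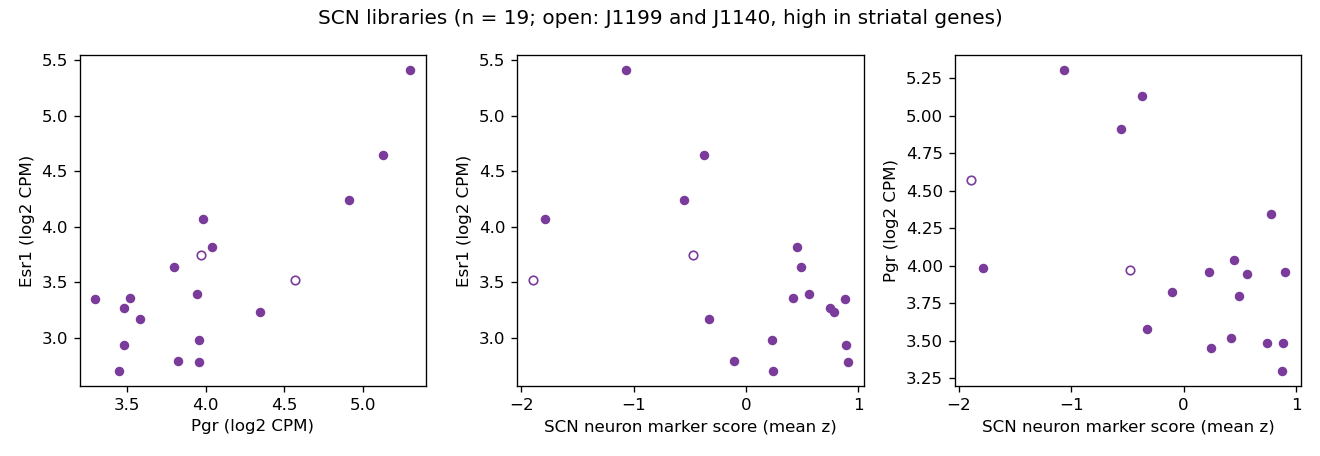
SCN libraries, with Esr1 against Pgr and each of the 2 against the SCN neuron marker score (mean z-score), genes in log2 CPM, with 1 point per library and open points for J1199 and J1140. The 3 libraries highest in Pgr, J1011, J1017 and J1198, are also the 3 highest in Esr1 and have SCN neuron scores below 0.

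The genes whose level followed each member most closely were ranked by r. For Fkbp5 over 11132 genes in 3 regions these were Mertk, a phagocytic receptor tyrosine kinase that is also on the glucocorticoid-responsive list (0.52, the mean of r over regions on the Fisher z scale, as for the next genes), Epb41 (0.52), Rybp (0.51), March4 (0.51) and Ccdc6 (0.51). For Sgk1 they were Gpm6b, a myelin proteolipid family gene (0.79), Klhl2 (0.74), Fam131b (0.73), Atl3 (0.73) and Tfdp2 (0.73). In the NAc, where Sgk1 lay in separate ranges, their r was between 0.849 (Atl3) and 0.944 (Tfdp2). The lowest r was 0.354 (Tfdp2) in the SCN and 0.409 (Klhl2) in the PFC. Tsc22d3 was followed by Gpr37l1, an astrocyte-enriched receptor (0.71), Selenop, a selenium transport protein (0.69), Csrp1 (0.68), Sri (0.67) and Car8 (0.67). In the SCN alone, Esr1 was followed by Hpcal1 (0.90), Slc5a5 (0.85), Rcn1 (0.83), Tmem215 (0.83) and the prolactin receptor Prlr (0.82), and Pgr by Prlr (0.93), Pak3 (0.91), Hpcal1 (0.89), the GABA receptor subunit Gabrq (0.88) and Irs4 (0.86). Both Prlr and Hpcal1 thus stood in the lists of Esr1 and Pgr. These values are the highest of 11132 or 12046 genes and carry no test.

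The glucocorticoid-responsive list was also read against the trio within regions. In the SCN, 25 listed genes had a value, and 4 had r over 0.5 with Tsc22d3, 3 with Sgk1 and 0 with Fkbp5, against 12%, 3.98% and 4.19% of all genes. Of 24 listed genes in the NAc, 5 (20.8%) had r over 0.5 with Sgk1, 1 (4.17%) with Tsc22d3 and 1 with Fkbp5, against 22.3%, 2.72% and 0.354% of all genes. In the PFC 0 did so with Sgk1, 0 with Tsc22d3 and 2 (8.33%) with Fkbp5, against 6.90%, 9.20% and 1.42%. Per1, a clock gene that carries a glucocorticoid response element, had r = -0.72 with Tsc22d3 in the SCN, -0.49 (NAc) and -0.34 (PFC), over 19, 26 and 17 libraries. For Per2 the corresponding values were -0.59, -0.22 and -0.52. Other listed genes rose with Tsc22d3 in the SCN, and the 4 over 0.5 were Gjb6 (0.63), Rhob (0.62), Mt2 (0.61) and Mt1 (0.58). The median r with Tsc22d3 in the SCN was -0.06 for the list and -0.01 for all genes. Klf9, a glucocorticoid-induced Krüppel-like factor, had r = 0.74 with Sgk1 in the SCN, 0.08 (NAc) and 0.03 (PFC). Mertk had r = 0.62 with Fkbp5 in the NAc and in the PFC and 0.26 in the SCN. These genes were named after their values were seen, and their values are given as a description with no test.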

How the data were processed

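Gene counts of 62 libraries were used, with 12047 genes for the SCN and 11569 for the NAc with the PFC. The authors prepared Smart-seq HT libraries from punches, aligned reads with HISAT2 to GRCm38, counted reads per gene with HTSeq, kept genes above a low-count limit, removed Y-chromosome genes and deposited raw counts without normalization. Whether counting used strand is not given in the sources used here. Libraries with identical counts were looked for within regions, and none agreed within sampling noise (chi-square per gene of 13.1 or more).

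The members and lists were chosen with earlier results of these data known. Regions were compared with edgeR 4.0.16 (quasi-likelihood, TMM, filterByExpr, R 4.3.3), and a call required an adjusted p under 0.05 with a change of 1.2-fold or more. The NAc against PFC fit used its own table, and the SCN was fitted with the NAc and PFC over the 11133 shared genes, which came from separately deposited tables. Levels are CPM after TMM over all libraries, and exon lengths came from GENCODE M21. DESeq2 1.42.0, other scalings and filters, ranges of mouse numbers and the mouse as a block were alternatives. Libraries of 1 mouse come from the same animal, which pairs them, although the correlation of NAc and PFC deviations from the region means ranged from -0.43 to 0.29 over 17 mice and was over 0.1 in 7. The replicates of a region are separate mice.

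Relations used log2 CPM (prior count 2) and two-sided permutation tests with 100000 resamples, exact below 10 libraries, with Benjamini-Hochberg adjustment within each family (63, 21, 6 and 161 relations). The 2 farthest libraries or mice were chosen by distance from a median. That median was of the first gene of a pair, of the score, or of the gene in the first region. Marker scores average the z-scores of those listed genes whose mean reached 1 CPM. In simulated counts for 11569 genes of the NAc and PFC, edgeR recovered 200 of 200 genes changed 2-fold and called 5 others, and DESeq2 recovered 200 and called 13 others. Named list genes were the 3 largest increases and decreases between the NAc and PFC among called genes of each list. Genes most like Fkbp5, Sgk1 and Tsc22d3 had the highest mean Fisher z of r over the regions, and those most like Esr1 and Pgr the highest r in the SCN. Depth limits Esr1 in the NAc most, where 7 reads stood behind the lowest value.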

Additional observations from a re-analysis of the deposited data

How the results depend on the processing

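The 5, 6 and 7 members called between the NAc and PFC, the SCN and NAc, and the SCN and PFC stayed within 1.5 times those counts under every alternative run. Another scaling moved the median log2 fold change of all genes by at most 0.013. With at least 1 CPM in every library Esr1 was not tested, leaving 4, 5 and 6. With the mouse as a replicate block the counts were 5, 7 and 7, and the block changed no other call than that of Pgr between the SCN and NAc. Of 235 log2 fold changes of single members under an alternative, 230 stayed on the same side of the threshold with the same sign, 2 gained and 2 lost the call, all 4 given with the regions, and 1 changed sign. Without the 13 NAc libraries above the median of cortical markers, Nr3c1 between the NAc and PFC went from -0.07 to 0.00682, uncalled in both cases.

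Of the 9 relations among Fkbp5, Sgk1 and Tsc22d3, 1 passed without the 2 farthest libraries. Of the 21 between regions, 1 passed in the upper range, with the range means subtracted and with the Xist cluster means subtracted, Pgr between the NAc and PFC each time (0.81, 0.69 and 0.76). Of the 6 relations of Esr1 and Pgr with SCN punch scores, 0 passed among mice of low numbers and 0 among those of high numbers, where fewer libraries entered. Of 387 values of single relations under an alternative, 315 kept their call and sign, 43 lost and 8 gained the call, and 21 changed sign.

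Most changes of sign were among the trio, none of which passed in the first place, and their cause was not tested. Fkbp5 with Sgk1 in the SCN was -0.0965 by Spearman's rho and -0.0439 without J1199 and J1140. In the NAc it was -0.0885 in the lower range, -0.0824 after the endothelial score, -0.246 after the striatal and cortical scores and -0.350 at or below the cortical median. In the PFC it was 0.232 and 0.00274 in the lower and upper ranges, 0.0550 with the range means subtracted and 0.176 without the 2 farthest libraries. Fkbp5 with Tsc22d3 was 0.5 in the lower range and 0.0625 after nuclear counts in the SCN, and -0.0277 after the endothelial score in the PFC. In the NAc it was 0.187 in the lower range, 0.0702 after the endothelial score, 0.380 after the striatal and cortical scores and 0.0735 above the cortical median. Sgk1 with Tsc22d3 was -0.106 in the lower range of the PFC and -0.00393 after the endothelial score in the SCN. The ependymal score had r of -0.302 with Esr1 and -0.224 with Pgr in the upper range. The astrocyte, striatal and cortical regressions, the cortical division and the fits without NAc libraries high in cortical markers were chosen after seeing the data.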
